A study of Mus musculus with 8 samples.

Results

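Long intergenic non-coding RNAs (lincRNAs) are transcripts from between protein-coding genes that encode no protein of their own. The lincRNAs described here are the genes that GENCODE M21 gives the biotype lincRNA, that lie on autosomes, and that averaged at least 1 CPM (counts per 1000000 counts of the library) over the 4 wild-type (WT) or the 4 knockout (KO) libraries. H19, Meg3, Gm13425 and Gm13427 were left out by name, which removed 2 genes that had passed the level. This left 178 lincRNAs of 1506 autosomal lincRNA genes and of 38355 genes in all. Of the 178, 155 passed in both groups, 8 through the WT mean alone and 15 through the KO mean alone. The rule used the levels of both groups, so a lincRNA that entered through WT alone had to be lower in KO and the reverse, and levels are given as a description. The members nearest the level were Gm26896 at 1.00 CPM, 1700037F24Rik at 1.01 CPM and Dbpht2 at 1.01 CPM in their higher group, and the nearest genes below it were Gm10710 at 0.987, Gm26578 at 0.982 and Mir670hg at 0.943 CPM.

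RNA was sequenced from thoracic dorsal root ganglia, which hold the cell bodies of sensory neurons, and the attached spinal cord of C57Bl6 mouse embryos at E11.5. WT embryos were compared with embryos lacking Prdm12 (KO), a PRDM-family zinc-finger factor of pain-sensing neurons, to find genes that depend on it. Each group had 4 libraries, although the series text speaks of triplicates, and the labels do not say how Prdm12 was deleted, or whether a library is a single embryo or a pool. The p-values therefore measure the spread between these libraries, which may be partly technical.

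Some lincRNAs act in the nucleus as scaffolds, as Neat1 does in paraspeckles, and Malat1 is found in nuclear speckles. Others are the precursors from which microRNAs or small nucleolar RNAs are cut, and many start close to the promoter of a developmental transcription factor and are read away from it on the other strand. Most are less abundant and more restricted to a cell type than messenger RNAs.

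Libraries held 23088908 to 28500792 counts, except WT replicate 1 with 67782435. Prdm12 averaged 32.9 ± 7.86 CPM in WT libraries and 1.25 ± 0.329 in KO libraries (SD, n = 4). Markers of sensory neurons, crest and ganglion glia, spinal neurons, muscle, mesenchyme, red cells, endothelium and macrophages were all detected, with no listed gene of the files at 0 in all libraries. Of 14 sensory neuron markers tested, 13 were lower in KO and 4 passed the test, with summed levels of 503 to 681 CPM in WT and 463 to 533 CPM in KO. Of 14 spinal neuron and progenitor markers 6 were higher and 8 lower in KO, with 3 called higher and 0 called lower. Their summed levels were 483 to 534 CPM in WT libraries and 453 to 503 in KO libraries. Of 10 crest and ganglion glia markers 6 were higher and 4 lower, with 1, Foxd3, called lower and 0 called higher. These summed to 866 to 966 CPM in WT and 787 to 958 CPM in KO. All 12 muscle and all 15 tested mesenchyme markers had higher means in KO and 0 passed. Their sums were 753 to 895 against 839 to 1209 CPM for muscle and 4371 to 5617 against 5307 to 6082 CPM for mesenchyme. In bulk RNA, fewer cells of a type and less RNA per cell cannot be told apart.

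The lincRNAs held between 0.29% and 0.532% of all counts of a library, and no member was at 0 counts in any library. Their median level was 2.82 CPM, and per kilobase of exon it was 1.26 CPM, against 6.67 CPM per kilobase for tested protein-coding genes. From here on CPM uses library sizes adjusted by the trimmed mean of M-values (TMM). Averaged over all 8 libraries, the order of levels per kilobase was led by Gm42418 at 714, Miat at 68.3, Gm26917 at 43.5, 1700020I14Rik at 28.9, 1810058I24Rik at 27.0, D930028M14Rik at 25.3, C130071C03Rik at 21.9, Gm12688 at 20.4, 4930516B21Rik at 19.001 and Malat1 at 18.2 CPM per kilobase. Gm12688 holds this place through WT, with 27.0 CPM per kilobase there and 13.9 in KO. Miat is a nuclear RNA of neurons, and 1700020I14Rik lies beside Oip5 and is the conserved RNA also known as Cyrano. The RefSeq table gives Gm42418 as another name of Rn18s-rs5, an 18S ribosomal RNA pseudogene at chr17:39846354-39848202, and Gm26917 ends 12 bp before it. The levels of both are therefore uncertain as lincRNA levels, since ribosomal RNA reads could be counted there. All lincRNAs together summed to 2930 to 5254 CPM in a library, and to 1836 to 2686 CPM without Gm42418 and Gm26917.

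In KO against WT, 3 of the 178 lincRNAs were lower and 1 was higher at an adjusted p under 0.05 (edgeR quasi-likelihood test, Benjamini-Hochberg over 16068 genes). Of all genes tested 0.243% were called lower and 0.056% higher. Of the 3 lower lincRNAs, 2 had entered through the WT mean alone, so the count of lower members is partly set by the rule. Among the 155 that passed the level in both groups, 1 was lower and 1 higher. At an unadjusted p under 0.05, 7 members were lower (3.93%) and 3 higher (1.69%). All tested genes gave 3.32% lower and 3.03% higher. Of these 7, 3 had entered through the WT mean alone, and the 155 gave 4 lower (2.58%) and 3 higher (1.94%). The counts at this unadjusted p depended on single libraries. They were 9 lower and 1 higher among the members without KO replicate 2, and 7 lower and 13 higher without KO replicate 4. Shares over all genes were not taken in those 2 fits. All 4 KO libraries lay below all 4 WT libraries for 5 members and above them for 2, shares of 2.81% and 1.12%. Of these 5, 2 had entered through the WT mean alone, and the 155 gave 3 below (1.94%) and 2 above (1.29%). Both sets of shares are close to the 2.45% and 1.69% of all tested genes.

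Most lincRNAs differed little between the groups. Their median log2 fold change was 0.02 and 153 of 178 lay within 0.25 of 0 on the log2 scale, where all tested genes gave 14460 of 16068. The median size of the log2 fold change was 0.11 in the lincRNAs and 0.06 in all tested genes. By sign, 106 of the lincRNAs were positive and 72 negative. The rule had set the direction of 15 of the positive and 8 of the negative, and the other 155 gave 91 and 64. Without KO replicate 2 the median of the lincRNAs was −0.02, and without KO replicate 4 it was 0.06. The median over all tested genes was −0.0032. Between 1 and 2 CPM the medians were 0.06 in the lincRNAs and 0.07 in coding genes. The biological coefficient of variation, the spread between libraries of a group beyond counting error, had a median of 13.9% in the lincRNAs and 8.44% in all tested genes. At matched levels the values were close below 5 CPM and stood apart at 20 CPM and above. They were 14.7% against 15.7% in coding genes between 1 and 2 CPM, 13.7% against 13.6% between 2 and 5 CPM, 10.9% against 9.94% between 5 and 20 CPM, and 11.9% against 6.40% from 20 CPM, where 18 lincRNAs lay. The plot of fold change against level shows the 4 called lincRNAs outside a narrow band.

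**Figure D1:**
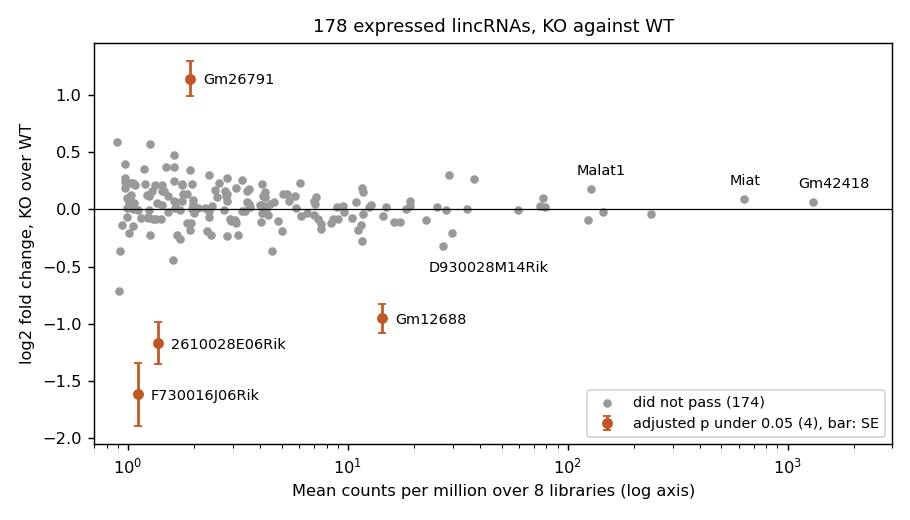
Log2 fold change of KO over WT (vertical) against mean CPM over 8 libraries (horizontal, log axis) for the 178 lincRNAs, 1 point each. The 4 that passed the test (Gm26791 above, Gm12688, 2610028E06Rik and F730016J06Rik below) are drawn with their SE, and 153 of the 178 lie within 0.25 of 0.

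Gm12688 (ENSMUSG00000086096) was the only called member whose nearest coding gene was called too. It lies at chr4:99653607-99654983 on the minus strand (GRCm38), has 2 exons of 68 and 633 bp, and is read away from Foxd3, whose gene body begins 1316 bp away on the plus strand. Foxd3 encodes a forkhead factor of neural crest, glial precursors and some spinal interneurons. The first 240 bases of the Gm12688 transcript (GENCODE M21; the first exon, chr4:99654916-99654983, is in capitals) and the RefSeq promoter of Foxd3 (build GRCm38.p6, 250 bases before to 50 after its start, chr4:99656049-99656348, plus strand) are given because the pair fell together.
Gm12688: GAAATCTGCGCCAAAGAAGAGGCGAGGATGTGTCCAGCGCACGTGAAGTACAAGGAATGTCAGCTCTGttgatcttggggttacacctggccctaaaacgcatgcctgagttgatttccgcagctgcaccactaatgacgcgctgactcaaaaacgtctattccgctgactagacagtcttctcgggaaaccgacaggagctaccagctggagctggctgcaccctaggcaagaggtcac
Foxd3 promoter: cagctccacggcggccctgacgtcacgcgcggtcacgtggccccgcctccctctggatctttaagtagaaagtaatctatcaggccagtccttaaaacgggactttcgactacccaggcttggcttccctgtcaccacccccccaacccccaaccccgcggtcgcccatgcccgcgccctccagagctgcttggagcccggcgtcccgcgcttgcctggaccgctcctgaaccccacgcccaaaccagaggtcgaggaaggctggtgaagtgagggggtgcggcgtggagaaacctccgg
The Foxd3 window held 25 CG dinucleotides, where the median RefSeq promoter of the same length held 7.

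For Gm12688, WT replicates 1 to 4 gave 16.5, 18.4, 20.4 and 20.4 CPM, and KO replicates 1 to 4 gave 10.01, 11.8, 9.78 and 7.34 CPM. The groups did not overlap, and every KO library was below the lowest WT library. Its mean fell from 18.9 ± 1.83 to 9.74 ± 1.83 CPM (SD, n = 4), 0.516 of the WT level. The log2 fold change was −0.95 with an SE of 0.13 and an edgeR adjusted p of 0.00987. Without WT replicate 4 or KO replicate 3 the adjusted p was 0.0511 and 0.0556, with log2 fold changes of −0.92 and −0.95.

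Foxd3 itself stood at 22.3, 26.8, 27.3 and 27.5 CPM in WT and at 17.99, 19.3, 14.7 and 17.9 CPM in KO. Its groups did not overlap either, and its log2 fold change was −0.57 (SE 0.09, edgeR adjusted p 0.0303). The log2 ratio of Gm12688 to Foxd3, each taken as log2 CPM with a prior count of 2, was −0.46 ± 0.056 in WT and −0.85 ± 0.303 in KO. It was lower in all 4 KO libraries than in any WT library, with a mean difference of −0.40, in a pair looked at because both genes were called. In the limma fit of this ratio over 12969 genes its adjusted p was 0.468, so the lincRNA was not shown to change by more than Foxd3. Among the 7 tested coding genes within 500 kb of Gm12688, Foxd3 was the 1 that was called.

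**Figure D2:**
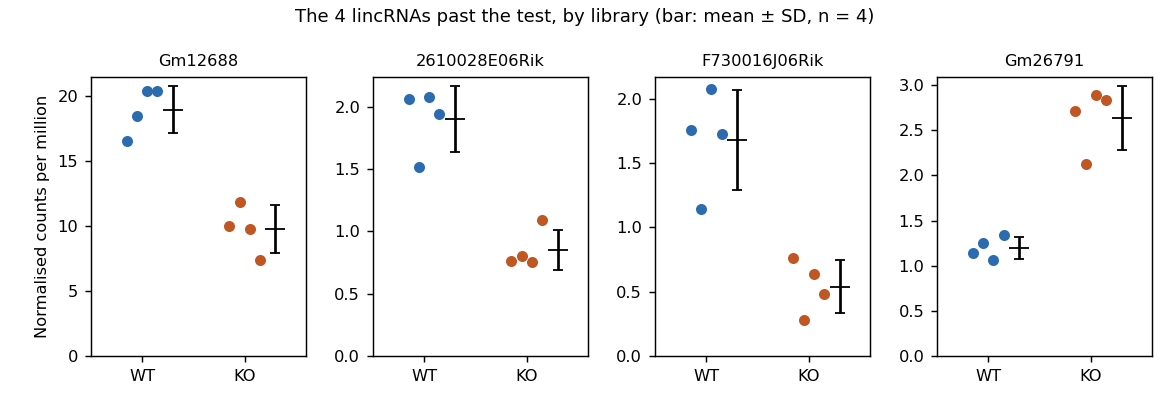
TMM-normalised CPM in each library (points) for the 4 called lincRNAs, with WT and KO on the horizontal axis and the mean ± SD of 4 libraries as black bars. The groups do not overlap in any panel, which choosing the members by this test favours. Gm12688 lies between 7.34 and 11.8 CPM in KO and between 16.5 and 20.4 CPM in WT. The members 2610028E06Rik and F730016J06Rik had also entered through the WT mean alone.

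The other 2 lower lincRNAs were of low abundance and entered through their WT mean alone. 2610028E06Rik (ENSMUSG00000085562, chr4:125887851-125922417, minus strand, 5 annotated transcripts) lies 102133 bp from its nearest coding gene, Csf3r, the receptor of granulocyte colony-stimulating factor. F730016J06Rik (ENSMUSG00000086425, chr2:28095477-28127731, plus strand, 3 transcripts) lies 10592 bp from Fcnb, a ficolin gene too low to be tested. Their RefSeq promoters (GRCm38.p6; chr4:125922354-125922653 on the minus strand and chr2:28095095-28095394 on the plus strand, which ends before the GENCODE start) are shown to compare 2 windows of genes that fell, with E-box letters CAGCTG and CAGATG, read by basic helix-loop-helix factors, and the homeodomain letters TAATTA in capitals.
2610028E06Rik promoter: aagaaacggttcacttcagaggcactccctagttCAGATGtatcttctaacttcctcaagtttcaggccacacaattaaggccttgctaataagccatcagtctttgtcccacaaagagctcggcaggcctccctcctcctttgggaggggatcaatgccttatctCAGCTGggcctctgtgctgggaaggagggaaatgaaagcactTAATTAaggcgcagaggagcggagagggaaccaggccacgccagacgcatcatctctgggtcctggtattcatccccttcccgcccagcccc
F730016J06Rik promoter: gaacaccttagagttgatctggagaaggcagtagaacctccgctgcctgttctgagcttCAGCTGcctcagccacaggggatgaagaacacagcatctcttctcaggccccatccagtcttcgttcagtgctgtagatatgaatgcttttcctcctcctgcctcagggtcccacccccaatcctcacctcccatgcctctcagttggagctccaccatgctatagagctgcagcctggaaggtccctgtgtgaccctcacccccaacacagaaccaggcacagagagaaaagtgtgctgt
The 2610028E06Rik window held 1 match of each, and that of F730016J06Rik 1 match of CAGCTG. The Foxd3 window held none of the 3, nor TATAAA. The letters CAGCTG and TAATTA read the same on both strands, CAGATG was searched on both, and these motifs do not share letters at any match printed. Such matches are common: of 32851 RefSeq promoters, 16.3% held CAGCTG, 17.2% CAGATG and 5.29% TAATTA. In the 103 promoters found for 88 of the lincRNAs the shares were 19.4%, 13.6% and 2.91%, and the median number of CG was 14. A match describes the letters of a window and is no evidence of binding.

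2610028E06Rik stood at 2.06, 1.51, 2.08 and 1.94 CPM in WT and at 0.759, 0.801, 0.750 and 1.09 CPM in KO, from 41 to 139 and from 20 to 25 counts a library. The groups did not overlap, and KO replicate 4 was the highest KO library. The mean was 1.90 ± 0.265 CPM in WT and 0.851 ± 0.163 CPM in KO, a log2 fold change of −1.17 (SE 0.18, edgeR adjusted p 0.0230). Leaving out WT replicate 3, WT replicate 4 or KO replicate 1, 2 or 3 ended the call, with an adjusted p of up to 0.122 and log2 fold changes between −1.304 and −1.11 over all 8 fits. Csf3r had a log2 fold change of −0.30 and was not called. The log2 ratio to Csf3r was 0.41 ± 0.232 in WT and −0.41 ± 0.407 in KO, with overlapping groups, a description without a test since the rule and the call had chosen this lincRNA for its lower KO level. None of the 15 tested coding genes within 500 kb was called; they ranged from −0.30 to 0.34 on the log2 scale.

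F730016J06Rik stood at 1.75, 1.14, 2.08 and 1.73 CPM in WT and at 0.759, 0.280, 0.637 and 0.481 CPM in KO. These rest on 118, 31, 53 and 49 counts in WT and on 21, 7, 17 and 11 counts in KO, and the groups did not overlap. Its mean was 1.67 ± 0.389 CPM in WT and 0.539 ± 0.207 CPM in KO, with the largest log2 fold change of the 178 (−1.62, SE 0.28, edgeR adjusted p 0.0360). It was called in the fits without WT replicate 1 or WT replicate 2 and in none of the 6 that left out another library, where the adjusted p reached 0.174 and the log2 fold change stayed between −1.83 and −1.41. The gene lies 3.51 Mb from Prdm12 on chromosome 2. There were 13 members on this chromosome and 3 within 10 Mb of Prdm12, and the other 12 were not called. The 2 others within 10 Mb, Tmem250-ps and 1810012K08Rik, had log2 fold changes of 0.01 and 0.12. Among 10 tested coding genes within 500 kb 0 were called. Olfm1, a secreted olfactomedin of neurons 65.3 kb away, averaged 175 ± 12.1 CPM in WT libraries and 155 ± 5.79 in KO libraries (log2 fold change −0.18, adjusted p 0.448).

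Gm26791 (ENSMUSG00000096997, chr14:118363732-118384768, plus strand, 2 exons of 464 and 1141 bp) was the 1 lincRNA called higher. It stood at 1.14, 1.25, 1.06 and 1.34 CPM in WT and at 2.71, 2.12, 2.89 and 2.84 CPM in KO. All KO libraries were above all WT libraries, and KO replicate 2 was the lowest of them. The mean rose from 1.20 ± 0.123 to 2.64 ± 0.353 CPM, 2.20 times the WT level, with a log2 fold change of 1.14 (SE 0.15, edgeR adjusted p 0.00987). Without KO replicate 3 or KO replicate 4 the adjusted p was 0.0552 and 0.0519, at log2 fold changes of 1.10 and 1.11. The transcript shares its position and strand with another annotated lincRNA, 1700044C05Rik, so reads of the 2 could be divided between them. The first 240 bases of the transcript (chr14:118363732-118363971, all in exon 1, no capitals) are given as the start of the 1 lincRNA called higher.
Gm26791: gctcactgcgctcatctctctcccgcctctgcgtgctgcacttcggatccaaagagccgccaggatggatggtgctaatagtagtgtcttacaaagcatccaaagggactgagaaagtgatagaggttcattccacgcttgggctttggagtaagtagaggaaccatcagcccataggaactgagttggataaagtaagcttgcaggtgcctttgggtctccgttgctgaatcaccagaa
Its nearest coding gene, Gm9376, lies 96044 bp away and was too low to be tested. None of 7 tested coding genes within 500 kb was called. They were Abcc4, a transporter, at −0.12, Sox21, an HMG-box factor of neural progenitors 126.7 kb away, at 0.09, and 5 others up to 0.24 on the log2 scale. The next expressed lincRNAs along the chromosome were Gm4675, with means of 1.81 ± 0.177 (WT) and 2.12 ± 0.459 CPM (KO), and Gm26773, with 1.37 ± 0.188 and 1.87 ± 0.831 CPM, and neither passed.

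The muscle and mesenchyme markers moved with genotype and therefore with these 4 results. Their score, the mean log2 CPM of both lists, ran from 6.42 to 6.61 in WT and from 6.60 to 6.87 in KO. With the score as a term none of the 4 was called. The adjusted p was 0.460 for Gm12688, 0.367 for Gm26791, 0.520 for 2610028E06Rik and 1.00 for F730016J06Rik, and the log2 fold changes were −0.89, 1.13, −1.23 and −1.28. The sizes were thus close to those without the score in the first 3, and the SE of Gm12688 grew to 0.20.

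The 12 members that came next by p, 6 in each direction, did not pass. D930028M14Rik, which overlaps Pou2f2 on the opposite strand, stood at 32.3, 25.0, 30.5 and 32.8 CPM in WT and at 23.7, 22.9, 24.3 and 25.5 CPM in KO. WT replicate 2 lay among the KO libraries and the others above them. Its log2 fold change was −0.32 (SE 0.08, edgeR adjusted p 0.311), and without WT replicate 2 it was −0.40 with an adjusted p of 0.0416. Whether counting used strand is not given in the sources used here, so reads of Pou2f2 could be counted in it. The next with negative values were 1700128E19Rik (−0.71), Gm5468 (−0.45), C030037D09Rik (−0.37), 5930412G12Rik (−0.28) and A530017D24Rik (−0.24). Those with positive values were Gm26516 (0.59), Gm20707 (0.37), A430105J06Rik (0.34), Mirg (0.30), Snhg18 (0.18) and Malat1 (0.17, adjusted p 0.807). Of these, 1700128E19Rik had entered through its WT mean alone and Gm26516 through its KO mean alone, so the rule set their direction. Without WT replicate 1 the log2 fold change of 5930412G12Rik was −0.15. Without KO replicate 2 those of Gm26516, Mirg, Snhg18 and Malat1 were 0.26, 0.18, 0.12 and 0.10.

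Lists of known lincRNAs were read in the same fit. Of 17 listed nuclear and widely expressed lincRNAs 5 were members (Malat1, Neat1, Miat, Epb41l4aos and Dubr), and 0 passed edgeR, DESeq2 or limma-voom, with 0 at an unadjusted p under 0.05 in edgeR. Malat1 averaged 120 ± 5.71 CPM in WT libraries and 135 ± 17.8 in KO libraries, and Neat1 at 6.89 ± 1.08 and 7.21 ± 1.65 CPM. Of 30 listed lincRNAs of neural development 10 were members. The 4 called lincRNAs had been put on this list with their results known, so they say nothing about it, and the 6 others did not pass. The list also held lincRNAs that lie beside neural transcription factor genes, Pantr1 beside Pou3f3 and Lhx1os beside Lhx1. Pantr1 averaged 32.0 ± 5.56 CPM in WT libraries and 27.8 ± 3.35 in KO libraries, and Lhx1os at 12.03 ± 0.754 and 10.9 ± 1.24 CPM. Their log2 fold changes were −0.21 and −0.14, that of Pantr1 turning to 0.21 when the muscle and mesenchyme score was a term, and the groups overlapped in both. Without WT replicate 1 that of Pantr1 was −0.08, and that of Lhx1os was −0.22 without KO replicate 2 and −0.09 without KO replicate 3.

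The lincRNAs were then set against their nearest protein-coding genes, by the gap between gene bodies. Of the 178, 53 were divergent from that gene (on opposite strands, read apart), 53 lay on the same strand, 45 overlapped it on the opposite strand, 19 were convergent and 8 overlapped it on the same strand. The nearest gene was tested for 156. Per kilobase of exon, 128 of these 156 were below their neighbour, with medians of 1.301 CPM per kilobase for the lincRNAs and 9.51 for the neighbours. The lincRNA's log2 fold change had a median size of 0.11 and the neighbour's of 0.05, at the larger error of lower counts.

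Fold changes of lincRNA and neighbour had the same sign in 97 of 156 pairs (62.2%), where each tested gene and its nearest coding gene gave 52.6%. The share was 70.6% in the 51 divergent pairs with both tested, 61.4% in 44 pairs on the same strand, 61.5% in 39 pairs overlapping on opposite strands, 47.1% in 17 convergent pairs and 40% (2 of 5) in pairs overlapping on the same strand. In the 39 divergent pairs with start sites within 5 kb it was 71.8% (28 of 39), against 54.2% of 1267 such pairs over all tested genes. Across these 39 pairs Pearson's r of the fold changes was 0.73, and 0.49 without Gm12688, against 0.12 across the 1267. Divergent lincRNA pairs with starts beyond 5 kb were close to this, with 66.7% (8 of 12) of the same sign and r of 0.58. Pairs share libraries and are not independent, so these are descriptions, and for overlapping pairs reads of 1 gene may be counted in the other. In the plot of both fold changes most pairs lie near 0 on both axes, and Gm12688 with Foxd3 stands apart from the other divergent pairs.

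**Figure D3:**
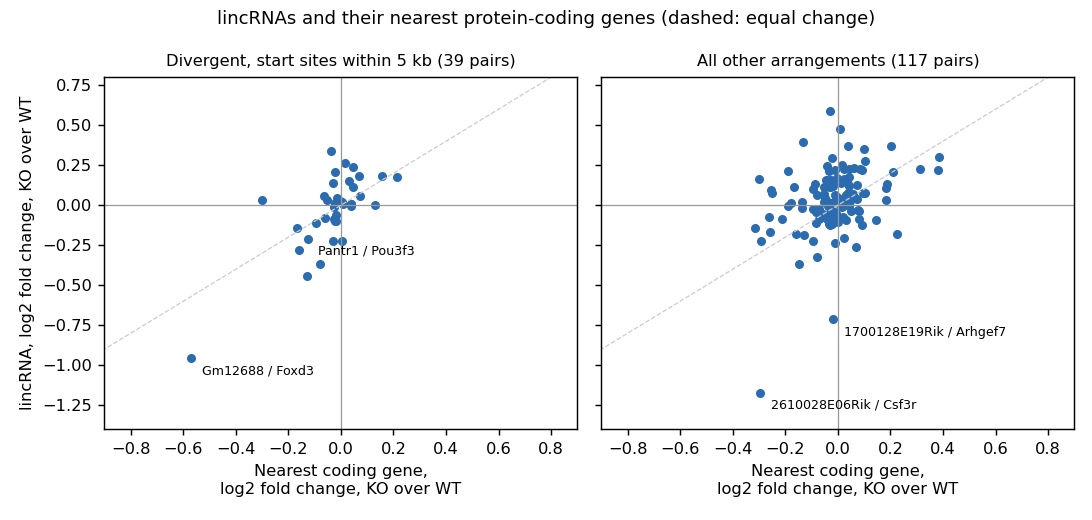
Log2 fold change of KO over WT of each lincRNA (vertical) against that of its nearest protein-coding gene (horizontal), 1 point a pair, for 39 divergent pairs with starts within 5 kb (left) and the 117 other pairs (right). The dashed line marks equal change, and Gm12688 with Foxd3 lies at −0.95 and −0.57.

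For the ratio of a lincRNA to its nearest coding gene, 0 of 156 passed in limma, with 0.308% of 12969 genes called, and 7 were at an unadjusted p under 0.05, where all genes gave 6.5%. Among these 156 the ratio fit thus did not show any member to have changed otherwise than its neighbour. The called members F730016J06Rik and Gm26791 were not among them, as their nearest coding genes were too low to be tested. When 1 library was left out, from 4 (KO replicate 3) to 16 (KO replicate 4) were at an unadjusted p under 0.05 in limma, and none passed. With the neighbour chosen by distance between start sites, 1 was called. D230017M19Rik averaged 3.96 ± 0.622 CPM in WT libraries and 4.02 ± 0.691 in KO libraries, while Mreg, which acts in melanosome transport and starts 24158 bp away, had a log2 fold change of −0.83 (edgeR adjusted p 0.00462). Their ratio was higher in KO by 0.85 on the log2 scale (SE 0.13, limma adjusted p 0.0101).

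MicroRNA hosts made up 13 of the lincRNAs, with 35 annotated hairpins on the same strand inside their gene bodies, and the RefSeq table (GRCm38.p6) held mature sequences for 32 of these. All 3 hairpins of miR-9, a microRNA of neural progenitors, were hosted, in C130071C03Rik, Gm3764 and Mir9-3hg. Mir17hg is the precursor of the miR-17 cluster, which promotes proliferation, and 6720427I07Rik spans 3 let-7 hairpins, microRNAs of differentiating cells. The mature sequences are shown for these 3 families because the hosts carry them, with the seed, bases 2 to 8, in capitals.
mmu-miR-9-5p: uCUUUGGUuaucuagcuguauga
mmu-miR-17-5p: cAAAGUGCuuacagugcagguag
mmu-miR-20a-5p: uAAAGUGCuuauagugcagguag
mmu-miR-19a-3p: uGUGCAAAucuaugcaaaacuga
mmu-miR-19b-3p: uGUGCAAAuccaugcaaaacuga
mmu-let-7a-5p: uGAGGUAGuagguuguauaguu
mmu-let-7d-5p: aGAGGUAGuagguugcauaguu
mmu-let-7f-5p: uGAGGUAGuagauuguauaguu
miR-17-5p and miR-20a-5p share the seed AAAGUGC, miR-19a-3p and miR-19b-3p the seed GUGCAAA, and the 3 let-7 sequences the seed GAGGUAG, so members of a group differ outside the seed. The libraries measured the host transcripts, not the mature microRNAs.

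None of the 13 hosts was called in edgeR, DESeq2 or limma-voom, and 1, Mirg, was at an unadjusted p under 0.05 in edgeR. Of the miR-9 hosts C130071C03Rik was the most abundant, at 131, 117, 127 and 135 CPM in WT and at 129, 135, 124 and 90.6 CPM in KO. KO replicate 4 was below the other 7 libraries. Gm3764 ranged from 60.5 to 91.8 CPM in WT and from 55.6 to 97.8 CPM in KO, and Mir9-3hg from 56.5 to 65.9 and from 49.97 to 67.6 CPM. Per kilobase of exon these were 21.9, 13.6 and 13.7 CPM, and the last 2 did not differ beyond the spread between libraries. Mir124a-1hg, which hosts a hairpin of neuronal miR-124, averaged 74.6 ± 17.5 CPM in WT libraries and 79.3 ± 25.6 in KO libraries, and Mir17hg at 27.9 ± 3.72 and 27.8 ± 6.25 CPM. The let-7 host 6720427I07Rik was lower, at 5.53 ± 0.701 and 5.96 ± 0.603 CPM. Mirg, an imprinted transcript of chromosome 12 with 14 of the hairpins that had sequences, averaged 25.9 ± 3.76 CPM in WT libraries and 31.8 ± 5.31 in KO libraries, with overlapping groups (log2 fold change 0.30, SE 0.13, adjusted p 0.751). Hosts of small nucleolar or Cajal body RNAs numbered 7, of which 0 were called and 0 were at an unadjusted p under 0.05 in edgeR. Snhg6 and Snhg20 stood at 18.6 ± 2.12 and 10.7 ± 1.27 CPM in WT and at 19.6 ± 3.00 and 11.2 ± 0.639 CPM in KO.

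**Figure D4:**
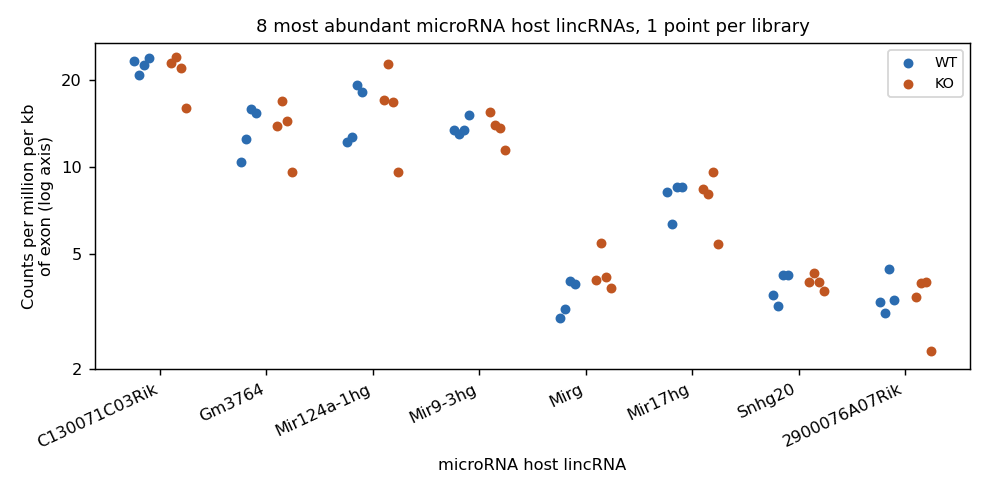
Level per kilobase of exon (vertical, log axis, CPM per kilobase) in each library for the 8 most abundant microRNA hosts, WT in blue and KO in orange, 4 points each. The groups overlap for every host, and C130071C03Rik, Gm3764 and Mir9-3hg, the miR-9 hosts, average 21.9, 13.6 and 13.7 CPM per kilobase.

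The libraries differed in the lincRNAs in a way that did not follow genotype. KO replicate 2 was the highest of 8 libraries for 55 of the 178 (30.9%), against 16.2% of all tested genes, and KO replicate 4 the lowest for 61 (34.3%), against 18.9%. WT replicate 2 was the lowest for 37 members (20.8%), against 10.5%. Summed without Gm42418 and Gm26917, the lincRNAs gave 2119 to 2501 CPM in WT and 1836 to 2686 CPM in KO, the last 2 being KO replicates 4 and 2. The 12 members with the largest spread within groups among 57 of at least 5 CPM, chosen after their values were seen, were Gm26917, Gm53, Gm42418, Mir124a-1hg, Miat, AI480526, Gm21781, Gm3764, 2900076A07Rik, Gm17275, Neat1 and Mir17hg. KO replicate 2 was the highest KO library for 10 of these 12 and KO replicate 4 the lowest for 10.

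Miat stood at 503, 514, 755 and 690 CPM in WT and at 715, 845, 679 and 378 CPM in KO. Both extremes lay in the KO group, and WT replicates 1 and 2 were below WT replicates 3 and 4. AI480526 gave 27.3, 28.5, 41.1 and 39.7 CPM in WT and 40.5, 55.4, 42.1 and 25.2 CPM in KO, the same order of highest and lowest library. Gm53, a transcript of the Hoxb cluster, gave 10.8, 15.5, 18.3 and 23.1 CPM in WT and 17.4, 24.0, 11.1 and 9.40 CPM in KO. None of the 12 was called in edgeR, 0 were at an unadjusted p under 0.05, and the groups overlapped in all 12. The steadiest members, also named after their values were seen, were Gm14230 (17.8 to 19.6 CPM over the 8 libraries), Tmem250-ps, 1810058I24Rik (71.2 to 80.3 CPM), Gm5113, 4930516B21Rik and 5031425E22Rik. Within-group SDs of log2 CPM ran from 0.29 to 0.96 in the 12 and from 0.05 to 0.07 in these 6.

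**Figure D5:**
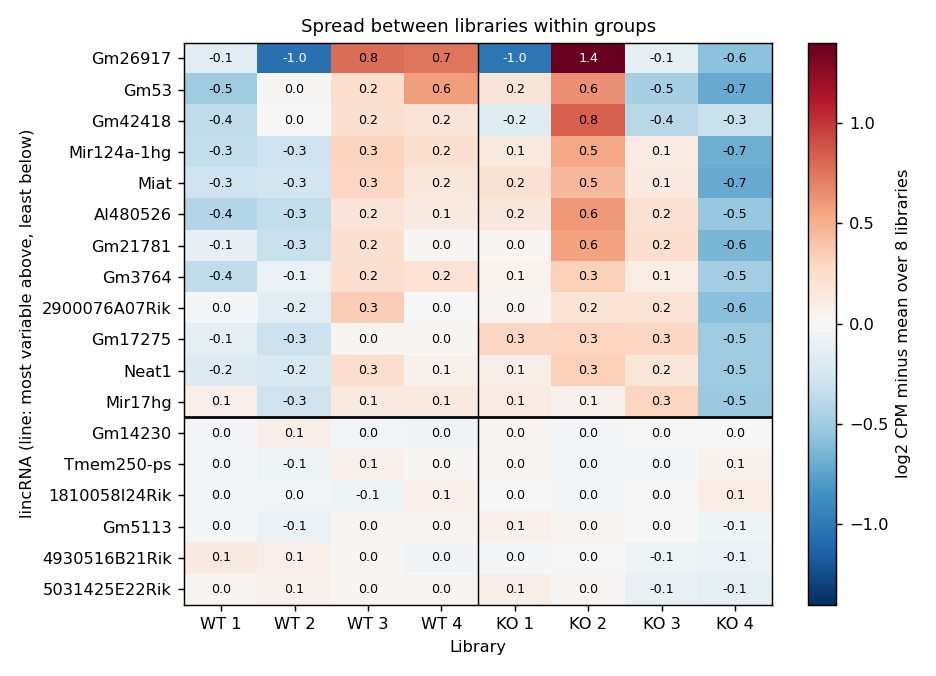
Log2 CPM minus the mean over 8 libraries (colour and printed value) for 12 lincRNAs of large and 6 of small spread within groups (rows, above and below the line), by library (columns, WT left and KO right). KO replicate 2 is the highest KO library in 10 of the upper 12 rows and KO replicate 4 the lowest in 10, while the lower 6 rows stay near 0.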

How the data were processed

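The authors deposited raw gene counts (whole numbers) of 4 WT and 4 KO libraries, with a file for each. The submitters' processing notes name the build mm10 and, as tools, the aligner STAR 2.3.0e, the counter featureCounts 1.4.6-p1, and also DESeq2 1.8.2, SAMtools 0.1.18 and FastQC 0.10.1. What settings, strand use and annotation release applied is not given in the sources used here. Each file held 38355 genes and 5 summary rows with 0 counts. Biotypes, exons and coordinates came from GENCODE M21 (GRCm38), in which 36602 identifiers matched and the rest held 0.263% of counts. GENCODE lists 5854 lincRNA genes, of which 1609 were in the files.

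Groups came from the genotype labels. All 178 lincRNAs passed edgeR's filterByExpr. KO was compared with WT in edgeR 4.0.16 (R 4.3.3; TMM, robust quasi-likelihood F test, group alone) over 16068 genes with Benjamini-Hochberg adjustment at 0.05, and an SE was the size of the log2 fold change over the square root of F. For each tested gene and its nearest other coding gene, the log2 CPM difference (prior count 2) was tested with limma 3.58.1, with a prior variance that follows the lower of the 2 mean levels. Both fits were tested on 5 simulated sets, with libraries drawn independently and changed genes drawn from all tested genes. Median levels were 25.8 CPM over all tested genes and 2.82 CPM in the lincRNAs, and recovery in the lincRNAs alone was not measured. The edgeR fit recovered 69.3% of 1.5-fold and 86.6% of 2-fold changes, and 6.7% of its calls were false. The ratio fit recovered 54.1% and 82.8%, with 7.6% false, so it can miss changes of this size. No 2 libraries of a group agreed within sampling noise. At the smallest total, 1 CPM was 23.1 counts, which limits precision near that level. Alternatives were other scalings, filters, level rules, DESeq2 1.42.0, limma-voom, numeric covariates, the replicate number as a term and fits without each library. Figures used matplotlib 3.10.9.

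The members, lists and tests were chosen with earlier results of these data known. Named were the called members, the 6 next by p in each direction, the 10 highest per kilobase, list members, those with a called neighbour, those nearest the level, and the 8 highest microRNA hosts. Named after their values were seen were D230017M19Rik, 6720427I07Rik, Tmem250-ps, 1810012K08Rik, Gm4675, Gm26773, AI480526, Gm21781, Gm17275, Gm14230, Gm5113 and 5031425E22Rik, and the coding genes around called members. Sums of markers use TMM-adjusted CPM.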

Additional observations from a re-analysis of the deposited data

Results flagged for a closer look

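Among 80 groups of 4 libraries tested for a single value far from the rest, for the 40 named lincRNAs, 5 were flagged; chance flags about 1 in 20. Gm42418 in KO replicate 2 stood at 2249 CPM, where the other KO libraries lay between 964 and 1114 CPM. 1700020I14Rik in KO replicate 4 had 217 CPM, below the 242 to 245 CPM of the other KO libraries. 1810058I24Rik in the same library stood at 80.3 CPM, above 73.8 to 74.8 CPM. Mir17hg in WT replicate 2 stood at 22.4 CPM, below 28.9 to 30.2 CPM in the other WT libraries. 2610028E06Rik in KO replicate 4 stood at 1.09 CPM, above 0.750 to 0.801 CPM, and still below every WT library.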

How the results depend on the processing

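The counts of 3 lower and 1 higher lincRNA were the same 4 genes with DESeq2 size factors, library totals, no filter, a filter of 1 CPM in 4 libraries, DESeq2, limma-voom and the sex score. With the muscle and mesenchyme score both counts were 0. With a level rule of 2 CPM in either group 1 was lower. Without each library in turn the lower count ran from 0 to 4 and the higher count from 0 to 1. Replicate numbers did not pair the libraries: correlations of same-numbered deviations from the group means were −0.11, 0.28, −0.19 and −0.01. With the replicate block the lower count was 1 (F730016J06Rik) and the higher count 0. There Gm12688, Gm26791 and 2610028E06Rik had log2 fold changes of −0.96, 1.14 and −1.17, close to those without it, and adjusted p of 0.0748, 0.0699 and 0.101. Over all genes the counts, 39 lower and 9 higher, became 14 and 2 with the block, 4 and 0 with the muscle and mesenchyme score, 81 and 22 in DESeq2, and 95 and 20 in limma-voom; without each library they ran from 12 to 112 and from 3 to 21. For the ratio to the nearest coding gene the count of 0 became 1 with the nearest start site and stayed 0 in the other alternatives, the block included. The same-sign count of 97 of 156 ran from 91 to 104 without each library, and was 71 of 112 in pairs that do not overlap.

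Of 304 alternative fold changes of 18 named members, 280 kept direction and call, and 22 kept direction and lost the call. These 22 all fell on the 4 called members, as the others had no call to lose. Without each library in turn, the call held in 6 of 8 fits for Gm12688 and for Gm26791. It held in 3 of 8 for 2610028E06Rik and in 2 of 8 for F730016J06Rik. In the 9 other alternatives it held in 7 for each of the first 3 and in 8 for F730016J06Rik. D930028M14Rik gained a call without WT replicate 2, and Pantr1 turned to 0.21 with the muscle and mesenchyme score. The 220 alternative levels of the other 22 members, from library totals or without 1 library, moved by less than the SD between replicates. Leaving out 1 of 4 libraries cannot move a mean by as much as that SD, so those levels are no test of robustness. LincRNA levels near 1 CPM rest on 23.1 counts in the smallest library, which limits what was detectable there.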
